A study of Mus musculus with 6 samples.

Results

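The genes described here are 10 genes of the dendritic cell lineages, set by name: Siglech, Tcf4, Bst2 and Ly6d for plasmacytoid dendritic cells, and Zbtb46, Batf3, Xcr1, Cd209a, Plbd1 and Id2 for conventional dendritic cells. All 10 were found among the 30733 gene symbols of the tables, and no member's symbol was repeated. Their transcripts were measured by RNA sequencing in bone marrow cells that the labels call hematopoietic stem cells, taken from wild-type (WT) mice aged 12 months and sorted into a fraction with low surface MHC class II (MHCII_lo) and a fraction with high surface MHC class II (MHCII_hi). Each fraction had 3 libraries, and both share the genotype, the age and the tissue. Which other markers defined the sort is not given in the sources used here, nor is whether each library came from its own mouse. The p-values below therefore rest on the spread of these libraries alone, and that spread may be technical. No header names the unit of the deposited values, and they are taken here as FPKM (fragments scaled by transcript length and by library size), which allow levels of different genes to be compared.

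Dendritic cells present antigen and arise in the marrow from progenitors that respond to the cytokine receptor Flt3. Plasmacytoid cells, which secrete type I interferon, depend on the E protein Tcf4 (E2-2), while conventional cells carry Zbtb46 and fall into a type 1 branch that needs Batf3 and Id2 and a type 2 branch that includes Cd209a-positive cells. Id2 lacks a DNA-binding region and pairs with E proteins, which keeps them from DNA, so Tcf4 and Id2 act against each other when the branches part.

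All 4 plasmacytoid genes and Cd209a were lower in the MHCII_hi fraction, and Plbd1 and Id2 were higher. Mean FPKM was 3.30 times lower for Cd209a, 2.83 times for Siglech, 2.01 times for Bst2, 1.76 times for Ly6d and 1.58 times for Tcf4. Plbd1 rose 2.88-fold and Id2 1.15-fold. Zbtb46, a marker of conventional cells, and Batf3 and Xcr1, genes of their type 1 branch, stayed under 1 FPKM in all 6 libraries and were not tested. Genes whose 6 libraries averaged 1 FPKM or more were tested with limma on log2(FPKM + 1), a scale that understates the change of low genes. Of 12049 genes tested, 40.5% were called lower and 20.3% higher at an adjusted p under 0.05, against 5 lower and 2 higher among the 10 members (7 tested). Over all tested genes 2451 were higher and 4883 lower, a split that became 3398 and 3119 after the median-ratio scaling described below. The median log2 fold change (MHCII_hi minus MHCII_lo) was −0.71 over the 7 members tested (−0.59 after median-ratio scaling) and −0.12 over all genes tested. Siglech and Tcf4 reached the limit of 1 FPKM through their MHCII_lo values, with MHCII_hi means under 1, so these counts are a description of the set. In bulk samples, fewer cells of a type and less RNA per cell cannot be told apart.

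The fractions differed in many other genes, which sets the ground for the members. The 4 class II genes of the sort check (Cd74, H2-Eb1, H2-Ab1 and H2-Aa) were all higher in MHCII_hi. Of 10 stem cell markers, 5 stayed under 1 FPKM in all libraries, among them Procr (0.170 ± 0.060 FPKM in MHCII_lo and 0.543 ± 0.228 in MHCII_hi, SD, n = 3), chosen after its values were seen. All 16 neutrophil markers were higher in MHCII_hi, and together they took 2.81 to 2.84% of summed FPKM in MHCII_lo and 15.7 to 15.8% in MHCII_hi. Markers of monocytes and macrophages were lower in 10 of 11 cases and higher in 1, and their summed level was 3727 to 3780 FPKM in MHCII_lo and 2831 to 2848 FPKM in MHCII_hi. The part of these markers in the members' changes was not tested. Since FPKM are relative, median-ratio scaling was also applied. It moved the median gene from −0.12 to −0.010 and left all 7 tested members on the same side of the threshold.

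**Figure D1:**
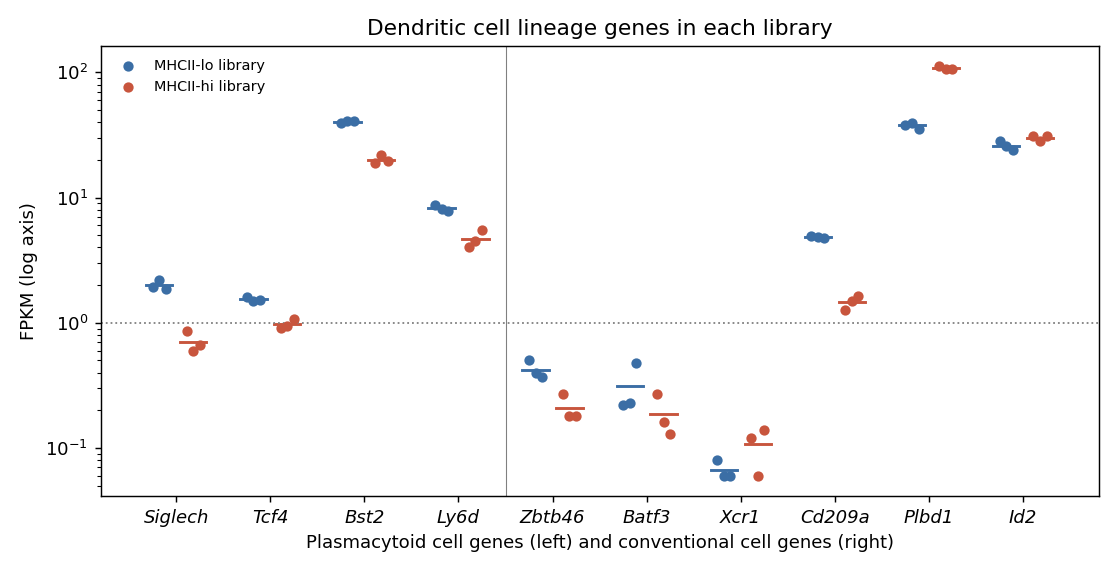
FPKM (log axis) of the 10 genes in each library. Points are libraries, short bars are means of 3 libraries, and the dotted line marks 1 FPKM, the limit on the mean for testing. The 4 plasmacytoid genes and Cd209a lie lower in every MHCII_hi library than in any MHCII_lo library, Plbd1 lies higher, and Zbtb46, Batf3 and Xcr1 lie under the dotted line.

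Promoter sequence is shown for 4 members that changed, a pair that fell (Siglech and Bst2) and a pair that rose (Plbd1 and Id2), so that the regulatory letters can be read beside the values that follow. RefSeq promoter windows (GRCm38.p6) were held for 8 of the 10 members, all but Tcf4 and Ly6d. Each line gives the 250 bases before the start site, 5′ to 3′ on the gene's own strand. The windows lie at chr7:55767934-55768183 (+ strand, Siglech), chr8:71537473-71537722 (− strand, Bst2), chr6:136661894-136662143 (− strand, Plbd1) and chr12:25096093-25096342 (− strand, Id2). Capitals mark matches to any of 5 motifs, searched on both strands.
Siglech: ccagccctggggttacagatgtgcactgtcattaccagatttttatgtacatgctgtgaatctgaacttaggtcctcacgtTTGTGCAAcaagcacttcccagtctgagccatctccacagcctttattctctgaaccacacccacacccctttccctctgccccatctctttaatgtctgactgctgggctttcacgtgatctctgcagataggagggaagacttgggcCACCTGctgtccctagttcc
Bst2: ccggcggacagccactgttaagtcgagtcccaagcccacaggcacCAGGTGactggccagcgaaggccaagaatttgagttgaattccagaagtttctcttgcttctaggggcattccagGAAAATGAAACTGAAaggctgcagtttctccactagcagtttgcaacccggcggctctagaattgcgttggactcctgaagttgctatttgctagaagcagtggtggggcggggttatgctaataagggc
Plbd1: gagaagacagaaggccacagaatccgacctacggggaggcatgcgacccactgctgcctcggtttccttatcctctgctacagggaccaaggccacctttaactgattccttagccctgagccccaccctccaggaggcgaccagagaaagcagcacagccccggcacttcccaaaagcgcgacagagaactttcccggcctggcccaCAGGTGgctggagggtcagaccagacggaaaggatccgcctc
Id2: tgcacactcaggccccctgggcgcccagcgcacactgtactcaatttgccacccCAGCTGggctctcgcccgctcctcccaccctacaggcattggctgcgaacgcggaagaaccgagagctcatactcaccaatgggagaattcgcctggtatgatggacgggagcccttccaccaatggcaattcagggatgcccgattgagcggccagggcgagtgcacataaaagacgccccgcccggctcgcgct

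The motifs were the E-box bound by E proteins (CAGCTG or CAGGTG), the C/EBP motif (TTGCNNAA), the interferon response motif bound by IRF and STAT complexes (GAAANNGAA), the PU.1 motif (GAGGAAG) and the AP-1 motif (TGANTCA), counted over 300 bases that include 50 after the start. An E-box stood in 5 of the 8 member windows (Siglech, Bst2, Plbd1, Id2 and Zbtb46) and in 32.9% of all 32851 windows. In Siglech it began 20 bases before the start, in Plbd1 42, in Id2 196 and in Bst2 205. E-boxes were thus present in windows of members that fell and of members that rose. The interferon response motif was found in the Bst2 window alone among the 8, against 8.56% of all windows, as 2 matches that run into each other from 130 bases before the start. A C/EBP match was found in the Siglech window alone (169 bases before the start, 10.8% of all windows), a PU.1 match in Batf3 alone (13.6%) and an AP-1 match in Zbtb46 alone (7.81%). The windows of Cd209a and Xcr1 held none of these letters. The Zbtb46 window (chr2:181424389-181424638, − strand) lies inside the gene, far from its 5′ end at 181459426. Its matches need not be those of the gene's main promoter. The windows of Id2 and Batf3 also lie inside the annotated genes, nearer to their 5′ ends. No match overlapped one to another of the 5 motifs. A match describes the letters of the window and is not evidence of binding.

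Among the plasmacytoid genes, all 4 were lower in MHCII_hi. Siglech (chromosome 7, 55768178 to 55778925, GRCm38) encodes a receptor of the Siglec family that plasmacytoid cells carry. Its values were 1.94, 2.21 and 1.85 FPKM in MHCII_lo replicates 1, 2 and 3, and 0.86, 0.59 and 0.67 FPKM in MHCII_hi. All MHCII_lo libraries stood above all MHCII_hi libraries. The mean went from 2.0 ± 0.187 to 0.707 ± 0.139 FPKM (SD, n = 3), a log2 fold change of −0.82 (SE 0.095, limma adjusted p 0.000341). Among tested genes, 2.66% had a lower fold change.

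Tcf4, the E protein that specifies plasmacytoid cells (chromosome 18, 69343356 to 69689079), was the least abundant of the 7 members tested in MHCII_lo. It stood at 1.6, 1.5 and 1.51 FPKM in MHCII_lo and at 0.91, 0.94 and 1.07 FPKM in MHCII_hi. The groups did not overlap, with MHCII_hi replicate 3 nearest to the other fraction. The mean went from 1.54 ± 0.055 to 0.973 ± 0.085 FPKM (limma adjusted p 0.00565, log2 fold change −0.36, SE 0.077). This was the smallest of the 5 decreases, and 19.8% of tested genes had a lower fold change. Relative to the median gene the log2 difference was −0.24.

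Bst2 encodes tetherin, a membrane protein that holds budding virus particles to the cell and is used to stain mouse plasmacytoid cells (chromosome 8, 71534255 to 71537456). Levels of 39.6, 41.0 and 40.9 FPKM in MHCII_lo stood against 18.9, 21.9 and 19.6 FPKM in MHCII_hi. The groups lay wholly apart, and Bst2 went from the most abundant member in MHCII_lo to the third in MHCII_hi. The mean was 40.5 ± 0.745 FPKM in MHCII_lo and 20.1 ± 1.54 FPKM in MHCII_hi (limma adjusted p 7.82e-06, log2 fold change −0.98, SE 0.053). Bst2 is also an interferon-induced gene, and its window above holds the interferon response motif. Of 15 other interferon-induced genes, 12 were tested, 5 of them higher and 3 lower in MHCII_hi, with a median log2 fold change of 0.12. These are 41.7% higher and 25% lower, beside 20.3% and 40.5% of all genes tested. Ifi27l2a fell from 38.6 ± 2.09 to 12.4 ± 0.365 FPKM and Mx1 from 4.52 ± 0.206 to 1.88 ± 0.128 FPKM, while Oas2 rose from 1.61 ± 0.059 to 5.88 ± 0.566 FPKM and Rtp4, tested through its MHCII_hi level alone, from 0.933 ± 0.070 to 3.39 ± 0.324 FPKM. Interferon-induced genes thus moved both ways in the same libraries in which Bst2 fell.

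Ly6d encodes a surface antigen that marks lymphoid progenitors of the B lineage and precursors of plasmacytoid cells (chromosome 15, 74762056 to 74763620). It measured 8.76, 8.15 and 7.86 FPKM in MHCII_lo, and 4.06, 4.50 and 5.54 FPKM in MHCII_hi. No MHCII_hi library reached the lowest MHCII_lo value, although the spread was wider in MHCII_hi (coefficient of variation 16.2%, against 5.56% in MHCII_lo). Mean levels were 8.26 ± 0.459 and 4.70 ± 0.760 FPKM (limma adjusted p 0.000732, log2 fold change −0.71, SE 0.096). Of 13 lymphoid progenitor genes, 8 stayed under 1 FPKM in all libraries. Of the 4 tested, 2 were higher in MHCII_hi and none lower, beside 20.3% higher and 40.5% lower over all genes tested. The 2 were Cd79a, a chain of the B cell receptor complex that the B cell list also holds (2.41 ± 0.336 to 4.76 ± 0.552 FPKM), and Il7r, the interleukin 7 receptor (2.42 ± 0.090 to 3.10 ± 0.249 FPKM).

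Cd209a had the largest decrease of the 10 genes. It encodes a lectin related to DC-SIGN that marks type 2 conventional and monocyte-derived dendritic cells (chromosome 8, 3743397 to 3748984). The MHCII_lo libraries held 4.95, 4.81 and 4.75 FPKM and the MHCII_hi libraries 1.27, 1.48 and 1.65 FPKM. The values of each group lay close together and far from those of the other. The mean went from 4.84 ± 0.103 to 1.47 ± 0.190 FPKM (limma adjusted p 9.91e-06, log2 fold change −1.25, SE 0.071), and 0.531% of tested genes had a lower fold change. Cd209a lies in a family of similar lectin genes, so the sharing of reads among them is uncertain. The other 6 members were low. Cd209d, the most abundant of them, stood at 0.58, 1.22 and 0.45 FPKM in MHCII_lo and at 0, 0.09 and 0.09 FPKM in MHCII_hi, and Cd209b and Cd209f, named after their values were seen, were listed at 0 in all libraries.

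Because monocytes can also carry Cd209a, it was set against the 11 monocyte and macrophage markers of the same libraries. Per 1000 FPKM of their sum, Cd209a stood at 1.29 ± 0.025 FPKM in MHCII_lo and 0.517 ± 0.066 FPKM in MHCII_hi. The ratio was 2.49 times lower in MHCII_hi, with no overlap between groups (exact permutation p 0.1, two-sided). With 3 libraries against 3, 0.1 is the smallest p possible, and it came to 0.133 after adjustment over the 8 within-library ratios tested. The sum was 3727 to 3780 FPKM in MHCII_lo and 2831 to 2848 FPKM in MHCII_hi, while Cd209a fell 3.30 times. The separation of the ratio followed from these values and adds no support. Lyz2, named after its values were seen, made up most of the summed markers (2600 FPKM in MHCII_lo and 2125 FPKM in MHCII_hi). It fell 1.22 times, so the ratio mainly sets Cd209a against Lyz2. Of the 11 markers, 10 were lower and 1 higher, and Cx3cr1 fell 3.77 times, further than Cd209a.

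Plbd1 was the one member with a large increase. It encodes a lysosomal phospholipase B-like protein that is found in dendritic cells and granulocytes (chromosome 6, 136612070 to 136661928). Levels in MHCII_lo were 37.97, 39.7 and 35.4 FPKM, and those in MHCII_hi were 112, 107 and 107 FPKM. Every MHCII_hi library exceeded every MHCII_lo library, and Plbd1 became the most abundant member. The mean rose from 37.7 ± 2.19 to 108 ± 2.88 FPKM (limma adjusted p 4.37e-07, log2 fold change 1.501, SE 0.045), and 1.84% of tested genes had a higher fold change. An unclassified transcript on the other strand, Gm44401, overlaps 2375 bases of the gene, at a mean of 0.12 FPKM in MHCII_lo and 1.16 FPKM in MHCII_hi. Whether strand was used in the quantification is not stated.

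Each of the 16 neutrophil markers had a larger log2 fold change than Plbd1. Per 1000 FPKM of the 16 summed markers, Plbd1 stood at 4.12, 4.27 and 3.83 FPKM in MHCII_lo and at 2.04, 1.98 and 1.97 FPKM in MHCII_hi (exact permutation p 0.1, adjusted 0.133). The sum was 9216 to 9302 FPKM in MHCII_lo and 54035 to 54677 FPKM in MHCII_hi. S100a8 (means of 2432 and 13603 FPKM) and S100a9 (3598 and 23315 FPKM) made up most of it, so the ratio mainly sets Plbd1 against these genes. Its separation followed from the levels of Plbd1 and of the sum and adds no support. Set against Cst3, cystatin C, an abundant gene of dendritic cells, Plbd1 went from 0.178 ± 0.009 of the Cst3 level to 0.859 ± 0.013 (exact permutation p 0.1, adjusted 0.133). Since Plbd1 was higher and Cst3 lower, each without overlap, the separation of this ratio was fixed in advance. Plbd1 thus rose less than the granulocyte markers in the same libraries, while Cst3 fell. The part of neutrophil RNA in the Plbd1 value was not tested.

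Id2, the inhibitor of E proteins (chromosome 12, 25093799 to 25097140), had a small increase close to the spread of its libraries. It stood at 28.1, 26.1 and 24.04 FPKM in MHCII_lo and at 30.8, 28.4 and 30.8 FPKM in MHCII_hi. The groups did not overlap, but MHCII_lo replicate 1 and MHCII_hi replicate 2 lay close together. The mean went from 26.1 ± 2.02 to 30.0 ± 1.37 FPKM (limma adjusted p 0.0262, log2 fold change 0.20, SE 0.061). The call was lost without MHCII_lo replicate 2 (adjusted p 0.0622) or 3 (0.0627), without MHCII_hi replicate 1 (0.0765) or 3 (0.0774), and with no filter on low values (0.0636). Scaling moved the value the other way, to a log2 fold change of 0.33 by median ratios (adjusted p 0.00369) and 0.32 by the total without neutrophil markers (0.00358). Id2 is expressed in many blood cell types besides dendritic cells.

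**Figure D2:**
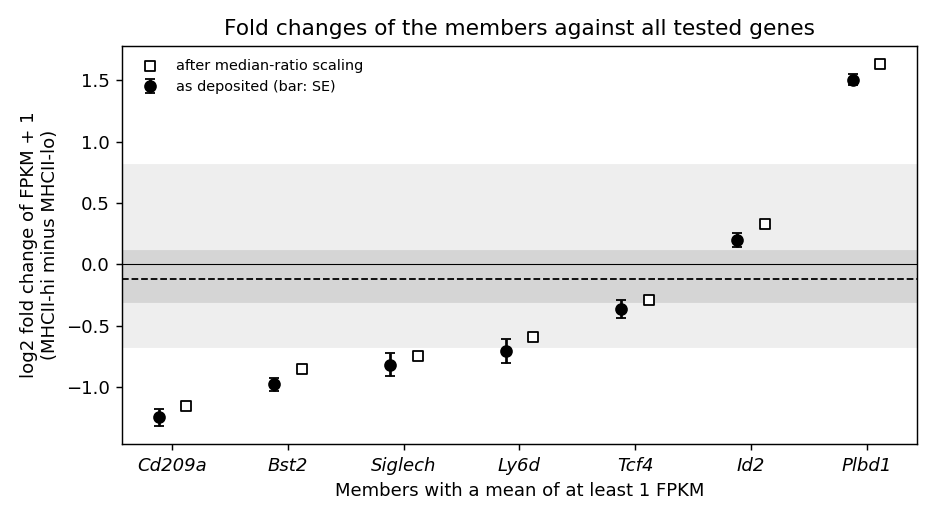
Log2 fold change of FPKM + 1 (MHCII_hi minus MHCII_lo) of the 7 members tested. Filled points are values as deposited with their SE, open squares are values after median-ratio scaling, grey bands hold the middle 50% (dark) and 90% (light) of all 12049 tested genes, and the dashed line is their median of −0.12. The bands and the dashed line are drawn from values as deposited. As deposited, Cd209a, Bst2, Siglech and Ly6d lie below the light band and Plbd1 above it. The open square of Ly6d (−0.59) lies inside the light band, whose lower edge is −0.673.

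Zbtb46, Batf3 and Xcr1 were low in every library. Zbtb46, the transcription factor that marks the conventional lineage (chromosome 2, 181387762 to 181459426), was at 0.50, 0.40 and 0.37 FPKM in MHCII_lo and at 0.27, 0.18 and 0.18 FPKM in MHCII_hi. The groups did not overlap. Without a filter on low values, where 26915 genes were tested and 17.1% called lower, Zbtb46 was called lower (log2 fold change −0.23, limma adjusted p 0.0289). Batf3, which type 1 cells need (chromosome 1, 191097847 to 191108945), was at 0.22, 0.23 and 0.48 FPKM in MHCII_lo and at 0.27, 0.16 and 0.13 FPKM in MHCII_hi. The groups overlapped, and in that fit Batf3 was not called (adjusted p 0.363). Xcr1, the chemokine receptor of type 1 cells (chromosome 9, 123852315 to 123862029), lay between 0.06 and 0.14 FPKM in all libraries and was not called either (adjusted p 0.354). The depth of the libraries is unknown, so the error of such low values rests on 3 libraries a group.

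In order of level, Bst2, Plbd1 and Id2 led in both fractions, followed by Ly6d and Cd209a. In MHCII_lo the ranges of Bst2 and Plbd1 overlapped, as did those of Zbtb46 and Batf3, while other neighbours in the order were apart. In MHCII_hi overlaps were found between Zbtb46 and Batf3 and between Batf3 and Xcr1. Siglech stood above Tcf4 in MHCII_lo and below it in MHCII_hi. Among genes above 0 in a library, Bst2 stood above 94.3% of genes in each MHCII_lo library and above 87.8 to 89.4% in MHCII_hi. Plbd1 went from above 93.2 to 94.1% to above 97.9 to 98.1%. Values of the groups did not overlap in any of the 7 members tested, the 5 called lower and the 2 called higher in MHCII_hi. Among all tested genes, 45.0% were lower and 22.6% higher without overlap. Siglech and Tcf4 passed the limit for testing through MHCII_lo alone. Of the untested members, Zbtb46 was lower without overlap, while the groups of Batf3 and Xcr1 overlapped.

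The E proteins and their inhibitors were then compared, since Tcf4 and Id2 belong to this network. Tcf3, which encodes E2A, fell from 18.9 ± 0.634 to 13.7 ± 1.14 FPKM, and Cbfa2t3, a corepressor that binds E proteins, from 5.35 ± 0.151 to 3.68 ± 0.364 FPKM. Id3, another inhibitor, fell from 2.48 ± 0.246 to 0.850 ± 0.279 FPKM and passed the limit through MHCII_lo alone. Tcf12, which encodes HEB, went from 4.80 ± 0.171 to 4.24 ± 0.031 FPKM (limma adjusted p 0.0269), a call lost after median-ratio scaling (log2 fold change −0.15 before and −0.037 after, adjusted p 0.515), by the total without neutrophil markers (0.501), after quantile normalization (0.188), with no filter (0.0546), with the replicate block (0.0636) and without any 1 library other than MHCII_lo replicate 3 (0.0606 to 0.0845). Id1, chosen after its values were seen, was at 10.9 ± 1.10 and 12.1 ± 0.346 FPKM and was called higher only after scaling by median ratios or by the total without neutrophil markers (adjusted p 0.0147 for both) and without MHCII_lo replicate 1 (0.00977). Of the 5 genes of this list that were tested, 4 were lower (80%) and none higher, with a median of −0.44. Over all genes tested, 40.5% were lower and 20.3% higher. The 4 include Id3 and Tcf12, with the limits given above.

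Ratios within a library do not depend on how libraries are scaled. The share of Id2 among Id1, Id2 and Id3 was 66.0 ± 0.876% in MHCII_lo and 69.8 ± 0.255% in MHCII_hi (exact permutation p 0.1, adjusted 0.133). Id2 was 17.6, 17.4 and 15.9 times as abundant as Tcf4 in MHCII_lo and 33.8, 30.2 and 28.8 times in MHCII_hi. The ratio was 1.83 times higher in MHCII_hi, with no overlap between groups (exact permutation p 0.1, adjusted 0.133). Id2 lay higher and Tcf4 lower without overlap, so the separation of their ratio was fixed in advance and adds no support. Against the sum of Tcf3, Tcf4 and Tcf12, Id2 went from 1.03 ± 0.097 to 1.59 ± 0.121 (exact permutation p 0.1, adjusted 0.133). Tcf3, Tcf4 and Tcf12 were each lower without overlap, so this separation also followed from the single genes. The share of Tcf4 in that sum was 6.09 ± 0.322% and 5.16 ± 0.734%, and its groups overlapped (exact permutation p 0.3). Siglech per Bst2 was 0.049 ± 0.004 and 0.036 ± 0.009, again with overlap (exact permutation p 0.2, adjusted 0.229).

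**Figure D3:**
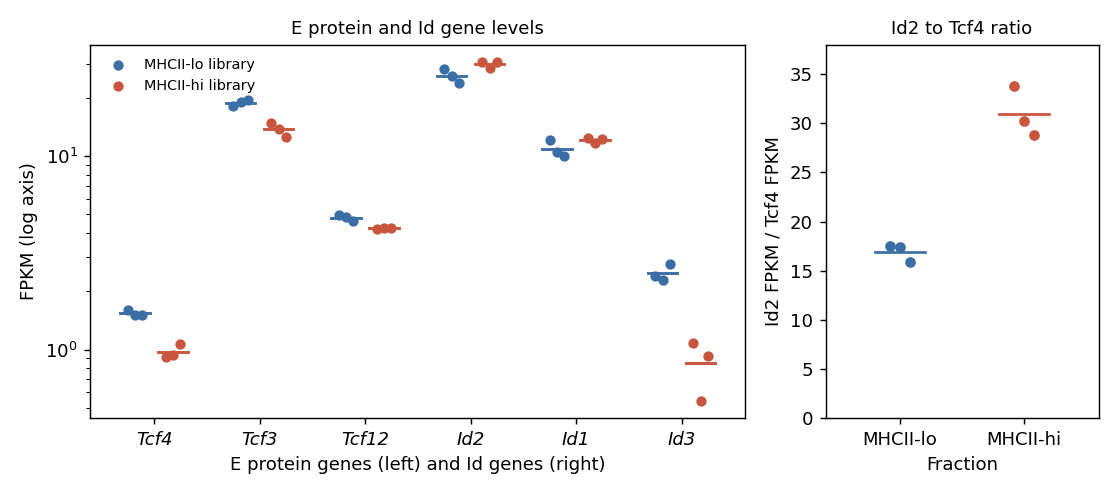
Left, FPKM (log axis) of 3 E protein genes and 3 Id genes in each library. Right, the ratio of Id2 to Tcf4 FPKM in each library. Points are libraries and bars are means of 3. The Id2 to Tcf4 ratio is 15.9 to 17.6 in MHCII_lo and 28.8 to 33.8 in MHCII_hi.

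Beyond the 10 members, 57 other dendritic cell genes in 4 lists were examined, of which 40 were tested. Of these, 22 were lower (55%) and 8 higher (20%) in MHCII_hi, and 10 did not pass, beside 40.5% lower and 20.3% higher among all genes tested. The share that was higher thus lay at the level of all genes. Of the 40, 5 (Tlr9, Cd300c, Clec9a, Ifi205 and Cd36) reached the mean of 1 FPKM only through MHCII_lo, 4 of them called lower, so the count of lower genes is in part set by that limit. Ifi205 and Cd36 are named here for that reason, after their values were seen. The median log2 fold change of the 40 was −0.32, beside −0.12 for all tested genes.

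Of 15 further plasmacytoid genes, 10 were tested, 7 of which were lower (70%) and none higher, with a median of −0.41. The shares over all genes tested were 40.5% lower and 20.3% higher. Cd300c and Tlr9, both among the 7, were tested only because of their MHCII_lo levels. Zeb2, a repressor of Id2 needed for plasmacytoid cells, fell from 12.4 ± 0.172 to 5.72 ± 0.215 FPKM (log2 fold change −0.997, limma adjusted p 1.65e-06). Runx2, which supports their exit from the marrow, fell from 7.93 ± 0.237 to 5.44 ± 0.031 FPKM. Cd300c fell from 1.83 ± 0.197 to 0.387 ± 0.160 FPKM and Ptprs, a phosphatase receptor, from 3.33 ± 0.217 to 1.95 ± 0.079 FPKM. Several genes were chosen after their values were seen. Bcl11a, a regulator upstream of Tcf4, fell from 3.48 ± 0.087 to 2.55 ± 0.221 FPKM, and Tlr9, the receptor for unmethylated DNA, from 2.06 ± 0.049 to 0.910 ± 0.140 FPKM. Tlr7, the receptor for single-stranded RNA, did not pass the test (5.02 ± 0.351 and 5.17 ± 0.650 FPKM, adjusted p 0.779), nor did Irf7, which drives interferon genes (4.53 ± 0.115 and 4.48 ± 0.284 FPKM, adjusted p 0.813). Spib, a partner factor of plasmacytoid cells, stayed under 1 FPKM (0.780 ± 0.161 and 0.480 ± 0.036 FPKM).

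Of 15 further genes of type 1 conventional cells, 11 were tested, with 5 lower (45.5%) and 2 higher (18.2%), near the shares of 40.5% and 20.3% over all genes tested. Irf8, the transcription factor that type 1 cells and their progenitors require, had the largest decrease of the 4 lists on the log2(FPKM + 1) scale. In the ratio of mean FPKM, Cd300c (4.72 times lower) and Cx3cr1 (3.77 times) fell further than Irf8 (3.44 times) among the tested genes of these lists. Irf8 stood at 42.5, 41.3 and 42.6 FPKM in MHCII_lo and at 12.8, 12.2 and 11.9 FPKM in MHCII_hi (log2 fold change −1.70, SE 0.035, limma adjusted p 8.55e-08). Clec9a, a receptor for dead cells, fell from 1.64 ± 0.183 to 0.507 ± 0.035 FPKM, having passed the limit through MHCII_lo alone, and Naaa, a lysosomal amidase, from 21.5 ± 0.750 to 14.9 ± 0.312 FPKM. Wdfy4, which cross-presentation needs, rose from 15.5 ± 0.434 to 18.6 ± 0.121 FPKM.

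Of 9 genes of type 2 conventional cells that were tested, 4 were lower (44.4%) and 3 higher (33.3%), beside the same 40.5% and 20.3%. The median of these 9 was −0.039 and, with median-ratio scaling, 0.091. Clec10a, a lectin, fell from 5.39 ± 0.288 to 2.68 ± 0.159 FPKM. Klf4 fell from 58.9 ± 2.13 to 30.2 ± 0.594 FPKM and Cx3cr1, also a monocyte gene, from 6.18 ± 0.356 to 1.64 ± 0.141 FPKM. Sirpa, a receptor of type 2 cells, monocytes and neutrophils, rose from 32.1 ± 0.319 to 48.8 ± 0.784 FPKM. Ltb, lymphotoxin beta, chosen after its values were seen, rose from 3.003 ± 0.705 to 10.6 ± 0.400 FPKM.

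Among 15 genes shared by dendritic cells, 10 were tested, 6 lower (60%) and 3 higher (30%), with a median of −0.55. The shares over all genes tested were 40.5% and 20.3%. Cst3 fell from 212 ± 3.79 to 126 ± 2.41 FPKM and Kmo, an enzyme of tryptophan breakdown, from 3.15 ± 0.202 to 1.01 ± 0.046 FPKM. Flt3, the cytokine receptor of their progenitors, was chosen after its values were seen and fell from 12.1 ± 0.047 to 7.64 ± 0.422 FPKM. Bcl6 rose from 2.90 ± 0.075 to 6.04 ± 0.221 FPKM and Spi1, which encodes PU.1, a factor of all myeloid cells, from 60.5 ± 2.45 to 84.3 ± 1.43 FPKM.

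**Figure D4:**
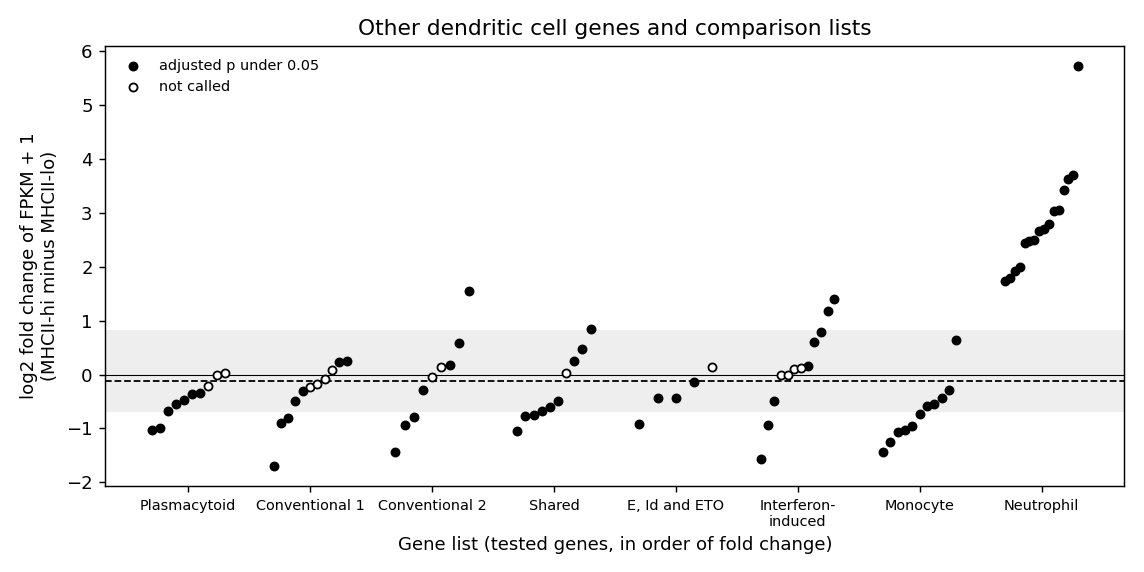
Log2 fold change of FPKM + 1 (MHCII_hi minus MHCII_lo) of the tested genes of 8 lists, in order within each list. Filled points passed an adjusted p of 0.05, open points did not, the grey band holds the middle 90% of all tested genes and the dashed line is their median. No plasmacytoid gene passed the test upward, while type 1, type 2, shared and interferon-induced genes went both ways. Of the monocyte markers, 10 of 11 were lower, and all 16 neutrophil markers were higher.

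Other cell types could lend some of the members' RNA. Of 8 plasma cell markers, 7 were tested, 4 higher and none lower, and their summed level was 253 to 256 FPKM in MHCII_lo and 322 to 330 FPKM in MHCII_hi. Of 10 B cell markers, 7 stayed under 1 FPKM, and the list summed to 13 to 15 FPKM in MHCII_lo and 16.7 to 17.4 FPKM in MHCII_hi. T and NK cell markers were lower in 3 of 5 tested (60%) and higher in none, beside the same shares over all genes. Among the 3 was Nkg7, whose call was lost after median-ratio scaling (limma adjusted p 0.0744) and by the total without neutrophil markers (0.0764). Csf1r, the receptor of the macrophage growth factor that dendritic cell progenitors also carry, was chosen after its values were seen and fell from 42.3 ± 1.36 to 19.7 ± 1.12 FPKM. The part of these cells in the values of Tcf4, Ly6d, Bst2 and Cd209a was not tested.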

How the data were processed

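Sorted bone marrow cells of 6 libraries were measured by stranded mRNA sequencing, per the labels' protocols. Tools named without versions in the submitters' processing notes are HISAT2, StringTie and fastp, and the build is GRCm38 (mm10). The authors deposited 1 value per gene and library, taken here as FPKM from their form (2 decimals, unequal sums of 327364 to 346651), since no header names the unit. No step of whole fragments was found in low values of single-exon genes (mean cosine at most 0.095), so depth is unknown and no counting interval is given. The tables held 30803 rows, 70 of them extra rows of repeated symbols, which were kept in the fit under names of their own.

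Genes averaging 1 FPKM or more were compared as log2(FPKM + 1) with limma 3.58.1 in R 4.3.3 (intensity trend, group as the only term, Benjamini-Hochberg adjustment over all tested genes, threshold 0.05). The fit was tested on simulated data. Within-library ratios were compared by exact two-sided permutation. Gene positions come from GENCODE on GRCm38 and promoters from RefSeq on GRCm38.p6. Motifs were searched with Python 3.11.15 and pandas 2.3.3.

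The members and gene lists were chosen with earlier results of these data known. Genes named are the 10 members, the sort check genes and, of each other list, up to 4 called genes with the smallest p, or else the most abundant gene. For the remaining genes the text says that values guided the choice. Marker lists of other cell types are given by counts and sums, and the sort check genes by their direction. Alternatives were a pseudocount of 0.1, no filter, a mean of at least 5 FPKM, median-ratio scaling, quantile normalization, no trend, the replicate number as a block and leaving out each library. Scaling to the total without neutrophil markers was added after the data were seen.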

Additional observations from a re-analysis of the deposited data

How the results depend on the processing

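The 5 decreases (Siglech, Tcf4, Bst2, Ly6d and Cd209a) and the increase of Plbd1 kept their direction and call under every alternative in which the gene was tested. At a mean of at least 5 FPKM, 2 members were called lower, since Siglech, Tcf4 and Cd209a were then not tested. Adjusted p for Tcf4 was at most 0.0233 and its log2 fold change lay between −0.61 and −0.29. Members called higher numbered 1 with no filter on low values and 1 to 2 without single libraries, as the Id2 call came and went. With the replicate block, 5 members were lower and 2 higher, beside 38.7% and 19.2% of all genes. Of the other genes named, the block ended the Tcf12 call alone. Same-numbered libraries did not deviate together (correlations of −0.042, −0.040 and −0.042), and no library correlated best with its own number. Neither Tlr7 nor Irf7 was called under any alternative, and their log2 fold changes changed sign. Without single libraries Tlr7 ranged from −0.045 to 0.11 and Irf7 from −0.058 to 0.011. Irf7 was at 0.092 after median-ratio scaling, 0.091 with the total without neutrophil markers and 0.056 after quantile normalization. Median-ratio scaling moved the split of calls over all genes from 2451 higher and 4883 lower to 3398 and 3119. FPKM carry no depth, so values under 1 FPKM, as for Zbtb46, Batf3 and Xcr1, have no counting error beside the spread of 3 libraries.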
